A study of Mus musculus with 9 samples.

Results

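The genes described here are 7 oncofetal regulators, chosen by name: Igf2bp1, Igf2bp2 and Igf2bp3, Lin28a and Lin28b, and Hmga1 and Hmga2. Of the 18049 genes listed in the deposited table, 6 of these 7 had a row, and Lin28a was not analysed here. Bulk RNA was sequenced from 9 clones that had been grown as primary cells from tumors of WTg mice. WTg mice carry EL1-Luc/EL1-Tag, in which the pancreatic elastase promoter drives luciferase and the SV40 large T antigen, together with CAG-Mettl3, in which the ubiquitous CAG promoter drives the m6A methyltransferase Mettl3. All 9 clones share this genotype and form a single condition, and the labels give their source as pancreas, their cell type as fibroblasts and their treatment as none. A protocol field of the same labels names NMS-P937, an inhibitor of Plk1, at 80 nM for 24 h. Mouse age is not given in the sources used here. Each clone was isolated from a separate colony, but the sources used here do not say which clones came from the same animal or tumor. Every p-value therefore measures only the spread between these 9 libraries.

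IGF2BP proteins are RNA-binding proteins that protect their client mRNAs from decay and read m6A, and IGF2BP1 and IGF2BP3 are abundant in the embryo and low in most adult tissues. LIN28 proteins bind the precursors of the let-7 microRNAs and block their maturation, and mature let-7 in turn represses the mRNAs of the IGF2BP, LIN28 and HMGA2 genes. HMGA proteins are small AT-hook chromatin proteins that bend DNA and assist transcription factors. Members of all of these families are known for being switched on in the fetus and again in many tumors, pancreatic tumors among them.

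The let-7 sequences are shown because they join the 3 families: 9 of the 10 mature mouse let-7 sequences listed in RefSeq (GRCm38.p6) have the same seed, bases 2 to 8, here in capitals. let-7 itself is not measured by mRNA libraries.
mmu-let-7a-5p: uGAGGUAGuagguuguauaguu
mmu-let-7d-5p: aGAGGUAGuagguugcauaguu
mmu-let-7g-5p: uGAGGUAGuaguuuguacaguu
mmu-let-7i-5p: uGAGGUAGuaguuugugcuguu

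Promoters are shown for the 4 members that were above the depth floor in every library and that were compared across clones below. RefSeq (GRCm38.p6) gave a promoter for 6 of the 7 genes, running from 250 bases before to 50 bases after a start. Each is 300 bases long, and the entry of Hmga1 with the lower coordinates is printed. The windows of Igf2bp3, Lin28a and Lin28b lie inside the coordinates of their genes, so they are not at the outermost start. For Lin28b the window is chr10:45470152-45470451, and the gene runs to 45486314 on the minus strand. Capitals mark the GC box, GGGCGG or CCGCCC on the other strand.
Hmga1, chr17:27556324-27556623, plus strand: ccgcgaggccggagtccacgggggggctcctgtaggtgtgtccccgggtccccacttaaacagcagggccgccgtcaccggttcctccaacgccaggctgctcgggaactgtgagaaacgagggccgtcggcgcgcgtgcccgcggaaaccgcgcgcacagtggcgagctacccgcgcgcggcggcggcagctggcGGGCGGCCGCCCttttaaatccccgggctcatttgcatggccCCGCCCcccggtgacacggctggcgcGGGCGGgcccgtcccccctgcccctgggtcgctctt
Hmga2, chr10:120476420-120476719, minus strand: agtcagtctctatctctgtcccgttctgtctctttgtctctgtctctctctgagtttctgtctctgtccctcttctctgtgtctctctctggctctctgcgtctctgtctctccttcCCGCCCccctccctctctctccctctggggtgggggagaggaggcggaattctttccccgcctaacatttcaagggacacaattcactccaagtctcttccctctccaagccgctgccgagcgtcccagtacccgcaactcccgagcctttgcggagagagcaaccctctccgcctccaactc
Igf2bp2, chr16:22163250-22163549, minus strand: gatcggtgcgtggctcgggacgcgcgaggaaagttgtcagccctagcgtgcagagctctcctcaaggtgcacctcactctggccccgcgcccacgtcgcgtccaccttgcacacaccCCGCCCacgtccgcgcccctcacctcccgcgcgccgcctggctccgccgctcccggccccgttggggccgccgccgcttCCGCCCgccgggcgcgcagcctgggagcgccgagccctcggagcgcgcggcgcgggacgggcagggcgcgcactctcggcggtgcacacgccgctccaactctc
Igf2bp3, chr6:49214905-49215204, minus strand: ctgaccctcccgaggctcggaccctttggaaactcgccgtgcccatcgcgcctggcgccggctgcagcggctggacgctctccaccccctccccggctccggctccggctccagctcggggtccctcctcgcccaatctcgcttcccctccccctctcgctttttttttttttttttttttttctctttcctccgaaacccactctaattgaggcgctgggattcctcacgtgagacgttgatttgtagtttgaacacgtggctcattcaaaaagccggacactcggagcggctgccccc

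The Hmga1 promoter held 4 GC box matches, 2 of which adjoin each other, the Igf2bp2 promoter held 2 and the Hmga2 promoter held 1. In Igf2bp3 there was none, and 35.7% of all 32851 promoters of this length held at least 1. The E-box CACGTG, found in 7.15% of all promoters, occurred 2 times in Igf2bp3 and 1 time in Lin28b and in none of the other 4 genes. The CCAAT box (CCAAT, or ATTGG on the other strand), present in 37.4% of promoters, occurred once each in Igf2bp3 and Lin28b, and the TATA box (TATAAA or TTTATA), present in 13.6%, in none of the 6. GC content was 76.7% for Igf2bp2, 74.0% for Hmga1, 63.3% for Lin28a, 60.3% for Igf2bp3, 57.7% for Hmga2 and 39.0% for Lin28b, against a median of 52.7% over all promoters. These matches describe the letters of these windows only.

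Values are given as normalized counts, which are read counts multiplied by 1 factor per library. Between 12198036 and 20453983 reads (median 18082573) were recovered from each library, and the floor, set at 3 reads, lay between 3.79 and 6.56 normalized counts. The names of the deposited columns carry 3 prefixes, called A (1 library), B (4 libraries) and C (4 libraries) here, and libraries are named A1, B1 to B4 and C1 to C4 in column order. What the prefixes stand for is not stated, and the columns could not be matched to single clone titles. Xist, the RNA that silences an X chromosome in female cells, was at 31700 ± 1409 in prefix B and 3.81 ± 3.48 in prefix C (SD, n = 4 each), so differences by prefix and differences by sex cannot be told apart. A1 held 0 of Xist and 2444 of the sex-linked Ddx3y, which was at 0 in prefix B and 2569 ± 143 in prefix C. By these genes prefix B was female, and A1 and prefix C were male, so prefix B and the other libraries came from different animals. A1 was the shallowest library, and it held 2184 normalized counts of Mettl3, the transgene's own gene, against 468 to 621 in the other 8.

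The labelled cell type was checked against marker genes. Of 14 fibroblast markers 13 were above the floor in every library, with Lum the exception, and their summed share of normalized counts was 3.28% in A1, 1.45% to 2.28% in prefix B and 2.01% to 3.92% in prefix C. All 16 macrophage markers were also above the floor in every library, at 2.58%, 2.82% to 3.29% and 2.22% to 3.43% in the same order. The largest means in these sums were those of Fn1 (276558 ± 70160 normalized counts) and Lyz2 (407389 ± 81985), so both sums depend most on 1 gene each. The epithelial marker Epcam was at 0 in all 9 libraries, and the 6 epithelial markers listed summed to at most 0.0008%. The 6 acinar markers summed to 0.0095% in C3, and to 0.0005% to 0.0015% in the other libraries. The libraries therefore held fibroblast and macrophage transcripts together, and in such bulk samples fewer cells of a type and less RNA per cell cannot be told apart. The share of all genes above the floor in every library was not worked out.

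**Figure D1:**
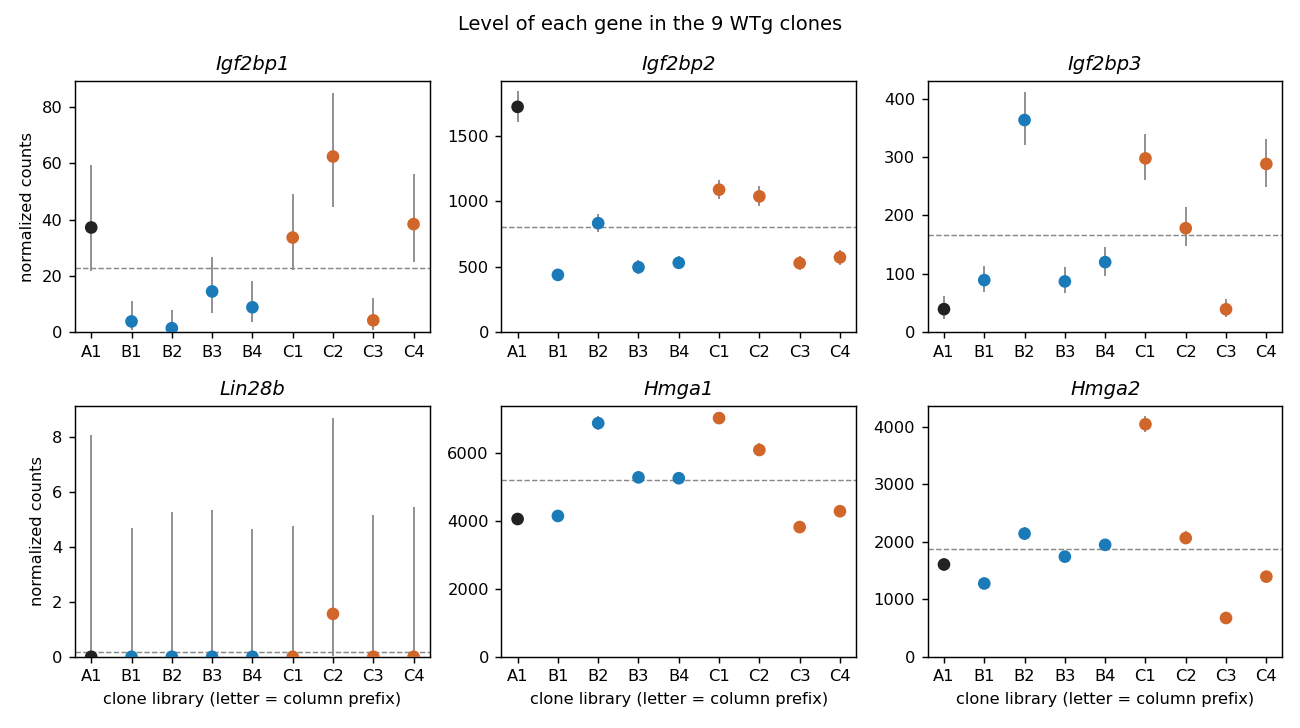
Normalized counts (linear axes from 0) of the 6 genes with a row in each of the 9 clone libraries, with colors for the column prefix, bars for the 95% counting interval and a dashed line for the mean. Igf2bp2 is highest in A1, Hmga2 is highest in C1, and Lin28b is at 0 in every library but C2.

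Igf2bp2 (ENSMUSG00000033581, chr16:22059009-22163299) was found in every clone at 805 ± 420 normalized counts (SD, n = 9). The study examines its human counterpart, in human cell lines and not in these clones, as a reader of the PLK1 transcript. The value in A1 was 1722. In prefix B the values were 438, 833, 496 and 530, and in prefix C they were 1089, 1038, 527 and 572. A1 therefore stood above all others, 1.58 times the next library, and its counting interval did not overlap with that of C1. Among the 14705 genes whose mean reached 10 normalized counts, 20.0% had their highest value in A1, and 1.35% had as large a lead there as Igf2bp2. The other 8 clones fell into an upper range of 833 to 1089 (C1, C2 and B2) and a lower range of 438 to 572. Without A1 the mean was 690 ± 259 (n = 8).

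Igf2bp3 (ENSMUSG00000029814, chr6:49085218-49215469), a paralog with the same RNA-binding domains, varied more, at 167 ± 121 normalized counts (n = 9). It was at 39.4 in A1, at 89.1, 363, 86.8 and 120 in prefix B, and at 298, 178, 39.2 and 288 in prefix C. The highest clone, B2, held 9.27 times the lowest, C3. A1, which held the most Igf2bp2, was next to lowest for Igf2bp3, with 18 reads. The coefficient of variation of Igf2bp3 was 72.7%, where counting alone would give 9.24%, and its SD on the log2 scale, 1.20, was larger than that of 93.7% of the 14705 genes.

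Igf2bp1 (ENSMUSG00000013415, chr11:95957163-96005944), the best-known fetal member of the family, was near the limit of detection. A1 held 37.2 normalized counts, prefix B held 3.82, 1.42, 14.5 and 8.83, and prefix C held 33.6, 62.4, 4.20 and 38.4. These values rest on 1 to 40 reads, and B1, B2 and C3 did not pass the floor. Counting intervals of neighbors in the order from high to low overlapped in all 8 cases. Intervals farther apart did not all overlap, as that of C2 (44.6 to 85.0) lay above that of B4 (3.55 to 18.2). The coefficient of variation of Igf2bp1 was 93.0%, where counting alone would give 26.4%. Its SD on the log2 scale, 1.65, was larger than that of 96.9% of the 14705 genes. The mean was 22.7 ± 21.1 (n = 9).

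Lin28b (ENSMUSG00000063804, chr10:45376617-45486314), the LIN28 member often reactivated in tumors, had 0 reads in 8 of the 9 libraries and 1 read in C2. A count of 0 allows up to 3 reads, or 3.79 to 6.56 normalized counts depending on the library, and the upper ends of the 95% counting intervals of the 8 libraries at 0 lay between 4.65 and 8.07. Expression of Lin28b was thus not detectable at this depth in any clone, and it was not tested further.

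The other genes of LIN28 action were listed, and most were expressed. Of 15 genes of LIN28 and let-7 processing, 14 were above the floor in all 9 libraries. Most listed genes were expressed too, as 14705 of 18049 had a mean of at least 10 normalized counts. The share of all genes above the floor in every library was not worked out, so such counts are not a result about a list. Dicer1, which cuts the let-7 precursor, was at 1889 ± 90.3, and Drosha, which releases that precursor, was at 931 ± 81.0. Ago2, the effector that carries let-7, was at 4228 ± 367. Tut4 and Tut7, the uridylyl transferases that LIN28A recruits to pre-let-7, were at 819 ± 201 and 3274 ± 323. Trim71, a let-7 target and stem cell RNA-binding protein, was the exception, with 28.1 ± 33.3, a range of 1.29 to 87.5 and its highest value in A1. Of 21 known let-7 targets, 19 were above the floor in every library, among them Ccnd1 (cyclin D1) at 17569 ± 4181, while Mycn exceeded it in none.

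Hmga1 (ENSMUSG00000046711, chr17:27556574-27563672) was the steadiest member, at 5202 ± 1230 normalized counts (n = 9) and between percentiles 93.0 and 96.9 of the genes of each library. It was at 4055 in A1, at 4144, 6876, 5280 and 5255 in prefix B, and at 7024, 6086, 3818 and 4284 in prefix C. The highest clone, C1, held 1.84 times the lowest, C3. The SD on the log2 scale was 0.34, against a median of 0.25 over the 14705 genes. Reads of the near-identical gene Hmga1b (140 ± 59.5) may have been shared with Hmga1 in counting, so both are uncertain to that extent.

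Hmga2 (ENSMUSG00000056758, chr10:120361268-120476469), the HMGA member repressed by let-7, was at 1875 ± 931 normalized counts (n = 9). A1 held 1604, prefix B held 1274, 2140, 1741 and 1946, and prefix C held 4041, 2064, 674 and 1393. C1 stood at the top and C3 at the bottom, 5.99 times apart, and neither counting interval overlapped with that of its neighbor in the order. The other 7 clones lay between 1274 and 2140. Both extremes fell in prefix C, whose range included the whole of prefix B.

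Hmga1 and Hmga2 were high and low in the same clones. On log2(normalized counts + 1), Pearson's r was 0.85 over the 9 libraries (exact permutation p = 0.00019, adjusted p = 0.0019 over 10 relations, two-sided), and Spearman's rho was 0.93 (exact permutation p = 0.00075, adjusted p = 0.0075). This was the only one of the 10 relations with an adjusted p of r under 0.05. C1, C2 and B2 were the highest 3 clones for both genes, and C3 was the lowest for both. Without A1 the r was 0.90 (adjusted exact permutation p = 0.0005), and centred within prefixes B and C it was also 0.90 (adjusted exact permutation p = 0.035). Centring uses the 8 libraries of prefixes B and C only, so it also leaves out A1. Leaving out C1 gave 0.79 (adjusted exact permutation p = 0.10), and leaving out C1 and C3, the libraries farthest from the median of Hmga1, gave 0.89 over 7 libraries (exact permutation p = 0.0093, adjusted p = 0.093), so the call by r did not hold there. By rho the call held without C1 (adjusted exact permutation p = 0.046) and not without C1 and C3 (0.22).

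The relation of Igf2bp3 with Hmga1 passed the threshold by rho but not by r (r = 0.75, exact permutation p = 0.027, adjusted p = 0.12; rho = 0.82, adjusted p = 0.046). Without C4, which had much Igf2bp3 and little Hmga1, r was 0.95 (adjusted exact permutation p = 0.0056). Without B2 and C3, the libraries farthest from the median of Igf2bp3, it was 0.57 over 7 libraries (adjusted exact permutation p = 0.35), and without either alone it was 0.67. The call by rho held in only 2 of the 9 sets that leave out 1 library, those without B3 or C4 (adjusted exact permutation p of rho 0.023 and 0.015), and was lost without A1, B1, B2, B4, C1, C2 or C3 (0.051 to 0.15) and after centring within prefixes (0.10). With Hmga2 the r of Igf2bp3 was 0.66 (exact permutation p = 0.046, adjusted p = 0.12).

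Igf2bp2 was related to the HMGA genes differently with and without A1. Over all 9 libraries its r was 0.29 with Hmga1 (adjusted exact permutation p = 0.67), 0.47 with Hmga2 (adjusted exact permutation p = 0.42) and 0.04 with Igf2bp3 (adjusted exact permutation p = 0.92). Without A1, r was 0.82 with Hmga1, 0.70 with Hmga2 and 0.66 with Igf2bp3, with adjusted exact permutation p-values of 0.075, 0.075 and 0.12. Centred within prefixes B and C, without A1, r was 0.97 with Hmga1 and 0.83 with Hmga2 (adjusted exact permutation p = 0.035 for both). Over the 576 assignments, the unadjusted exact permutation p was 0.0035 with Hmga1 and 0.010 with Hmga2. By rho, centred, only the relation with Hmga1 was called (adjusted exact permutation p = 0.035, and 0.075 with Hmga2). In prefix B, the clone with the most Igf2bp2, B2, also had the most Hmga1, Hmga2 and Igf2bp3. In prefix C, C1 and C2 were highest for Igf2bp2, Hmga1 and Hmga2, and C3 was lowest. The library that set the pooled value, A1, combined the highest Igf2bp2 with the next to lowest Hmga1. Its fibroblast share, 3.28%, was exceeded only by that of C2, and its Mettl3 and depth also stood apart, but the part of these in the relations was not tested.

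**Figure D2:**
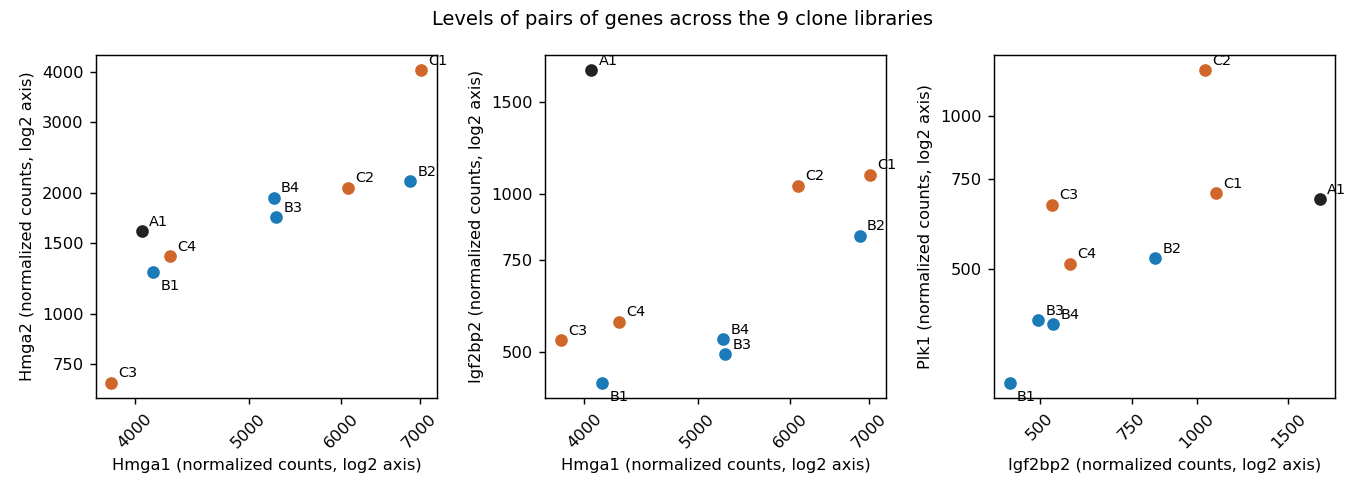
Each point is 1 of the 9 clone libraries, with normalized counts of a pair of genes on log2 axes and colors for the column prefix. Hmga1 and Hmga2 follow each other (r = 0.85), A1 lies far above the other clones in the plot of Igf2bp2 against Hmga1, and Igf2bp2 and Plk1 have r = 0.69.

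Plk1, the mitotic kinase whose human mRNA the study examines as a client of human IGF2BP2, was at 601 ± 276 normalized counts (n = 9). Its r was 0.69 with Igf2bp2 (exact permutation p = 0.038, adjusted p = 0.12; rho = 0.80, adjusted p = 0.046). With Igf2bp3, Hmga1 and Hmga2 it was 0.09, 0.28 and 0.19, with adjusted exact permutation p-values of 0.91, 0.67 and 0.80. The r with Igf2bp2 lay between 0.61 and 0.79 when each library was left out in turn, and the adjusted p was over 0.05 each time. The call by rho held only without C3 (adjusted exact permutation p of rho 0.036) and was lost without each of the other 8 libraries (0.051 to 0.14) and after centring within prefixes (0.11). Centred, r was 0.75 with Igf2bp2, 0.67 with Hmga1, 0.36 with Hmga2 and 0.23 with Igf2bp3, none of them called. Whether the r with Igf2bp2 differed from those with the other members was not tested. How many of all genes had as high an r with Igf2bp2 as Plk1 was not worked out, so the value is not particular to Plk1.

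**Figure D3:**
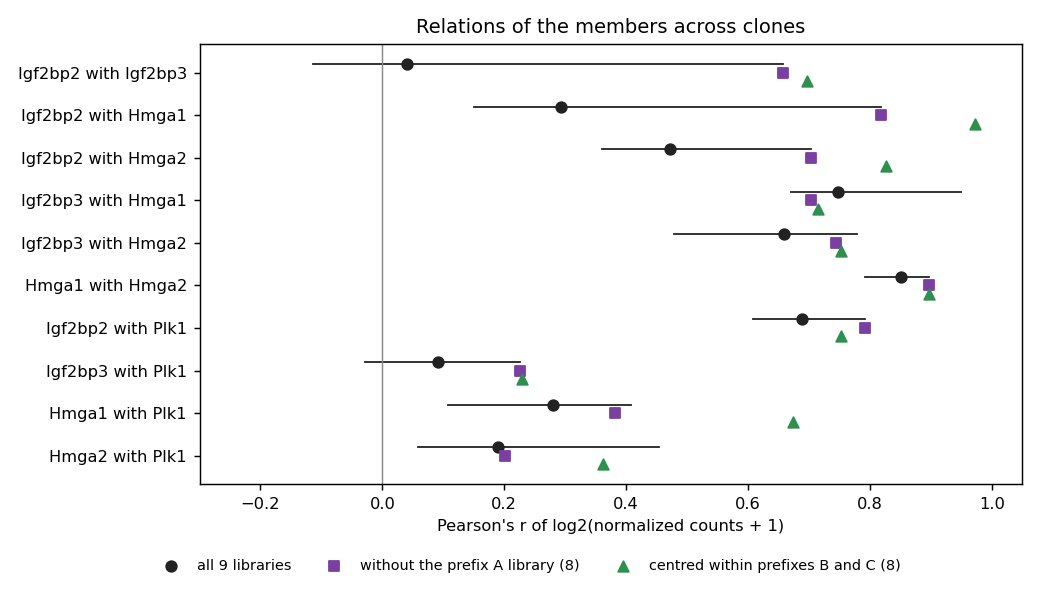
Pearson's r of log2(normalized counts + 1) for the 10 relations, with circles for all 9 libraries, lines for the range when each library is left out in turn, squares without the prefix A library and triangles after centring within prefixes B and C. The relations of Igf2bp2 with Hmga1 move from 0.29 over 9 libraries to 0.82 without A1 and to 0.97 after centring, which also leaves out A1.

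To place these relations, the genes whose pattern over the 9 libraries was most like that of each member were taken from the 12300 genes whose mean reached 50 normalized counts. For Igf2bp2 they were Btf3 (r = 0.98, and 0.97 after centring), Rars (0.98 and 0.98) and Pja1 (0.98 and 0.96), which are a subunit of the nascent polypeptide complex, an arginyl-tRNA synthetase and a ubiquitin ligase. Brf2, a subunit of RNA polymerase III initiation, led for Igf2bp3 (r = 0.95, and 0.94 after centring), followed by the neuropeptide receptor Adcyap1r1 (0.95 and 0.96) and Wdr89 (0.95 and 0.94). For Hmga1 they were Kctd1 (r = 0.93, and 0.93 after centring), the mitochondrial import chaperone Timm8b (0.93 and 0.94) and the kinase Prkg2 (0.91 and 0.93). Flrt2, an adhesion protein, led for Hmga2 (r = 0.96, and 0.97 after centring), followed by the mitochondrial channel Vdac2 (0.96 and 0.96) and Lrrc4c (0.95 and 0.95). Hmga2 was at rank 16 for Hmga1, and Hmga1 was at rank 35 for Hmga2. These values describe 9 libraries, or the 8 without A1 after centring, in which all genes share depth, scaling and prefix.

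Between the prefixes with 4 libraries each, no member was called. In the fit across 14705 genes with limma, 26 genes, or 0.177%, had an adjusted p under 0.05, and 0 of the 5 members tested were among them, with 1 at an unadjusted p under 0.05, as against 2956, or 20.1%, of all genes. The 26 included the sex-linked genes Xist, lower in C, and Ddx3y, Eif2s3y, Kdm5d and Uty, higher in C. Every member's ranges in prefixes B and C overlapped. The share of all genes with overlapping ranges was not worked out, so this is not a result about the members. Leaving out any library but C3 gave 10 to 15 called genes (11, 14, 12 and 15 without B1, B2, B3 and B4, and 15, 14 and 10 without C1, C2 and C4), and leaving out C3 gave 259. No member was called in any of these fits. C3 was also the library with the most acinar transcripts, and the part of these in the count was not tested.

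The largest member difference was that of Igf2bp1, whose prefix means were 7.14 ± 5.78 in B and 34.7 ± 23.9 in C (SD, n = 4 each). Its log2 difference, C minus B, was 1.996 (SE 0.87, 95% interval 0.02 to 3.98, limma adjusted p = 0.25). Without C3 it was 2.77 (limma adjusted p = 0.075), and without any other library it was 1.52 (without B2) to 2.41 (without B3). Igf2bp2 differed by 0.46 (SE 0.29, interval -0.21 to 1.13, limma adjusted p = 0.39) and Igf2bp3 by 0.21 (SE 0.71, interval -1.41 to 1.83, limma adjusted p = 0.88). For Hmga1 the difference was -0.04 (SE 0.22, interval -0.55 to 0.46, limma adjusted p = 0.92). For Hmga2 it was -0.06 (SE 0.48, interval -1.15 to 1.03, limma adjusted p = 0.95). The intervals of all members but Hmga1 still include differences of more than 2 times in level. Leaving out a library turned the sign of the last 3 of these differences, Igf2bp3, Hmga1 and Hmga2, at values given in the closing section.

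**Figure D4:**
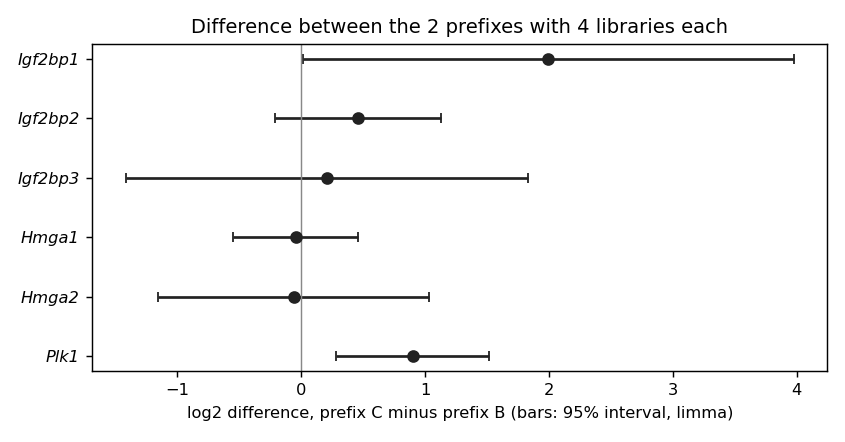
Difference in log2(normalized counts + 1) between prefix C and prefix B (4 libraries each) for the 5 members tested and Plk1, with limma's 95% intervals. The intervals of Igf2bp2, Igf2bp3, Hmga1 and Hmga2 include 0, and those of Igf2bp1 and Plk1 lie above 0. None of the 6 genes has an adjusted p under 0.05.

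The genes around the members did not pass the test either. None was called in LIN28 and let-7 processing (15 tested, median log2 difference -0.06), let-7 targets (20 tested, -0.05), IGF2BP client mRNAs (9 tested, 0.19) and IGF2BP granule partners (9 tested, 0.07), or in HMGB and HMGN chromatin proteins (7 tested, 0.25), other oncofetal genes (4 tested, 0.13) and HMGA-linked factors (8 tested, 0.55). The median over all genes tested was -0.02. At an unadjusted p under 0.05, which 20.1% of all genes had, there were 6, 3, 3, 0, 3, 1 and 5 genes in these lists, in the same order. Fibroblast markers had a median difference of 0.69 and macrophage markers of -0.34, with 0 called in both and 8 of 14 and 9 of 16 at an unadjusted p under 0.05, and the part of this in the 0.55 of the HMGA-linked factors was not tested.

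Among the IGF2BP clients, the oncofetal Igf2 (12.9 ± 8.04, n = 9) and its neighbor H19 (8.06 ± 6.93) were near the floor, and Sox2 was at 0 in all 9 libraries. Actb, the client in which the family's zipcode binding was described, was at 107190 ± 12108, and Cd44, a hyaluronan receptor, was at 8503 ± 1211. The granule partners were all above the floor in every library, from Elavl1 at 1507 ± 146 to Pabpc1 at 17602 ± 2163. As the share of all genes above it was not worked out, this is not a result about the partners. Of the HMGB and HMGN proteins, which are other architectural chromatin proteins, Hmgb1 was at 4698 ± 696 and Hmgb3 at 187 ± 71.2. Of the other oncofetal genes, Peg10, an imprinted gene of retrotransposon origin, was at 182 ± 71.4, Afp, the fetal serum protein, was at 30.6 ± 12.3 and Dlk1 at 2.18 ± 2.83. Among the HMGA-linked factors, the mesenchymal repressor Zeb1 was at 1391 ± 412 and Twist1 at 233 ± 132. None of these values was divided by transcript length, so they do not rank genes by level.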

How the data were processed

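RNA from 9 WTg clones was sequenced with stranded mRNA libraries. The authors deposited log2 values, which are read counts scaled by 1 factor per library with an offset of 4 added before the log2. Per the submitters' processing notes, FastQC 0.11.9, STAR 2.7.10, RSEM 1.3.3 and GRCm38 were used. The scaling software is not given in the sources used here. Each value was brought back to normalized counts (2 to the value, minus 4) and to reads by the step of each library, which gave whole reads (within 0.1) for 100% of values under 200 reads. Because the unit is log2, limma replaced a count model. The 6 further columns of the table were not used.

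limma 3.58.1 (R 4.3.3) was fitted with a trend on log2(normalized counts + 1), with the prefix as a 3-level factor, to genes whose mean reached 10 normalized counts, with Benjamini-Hochberg adjustment at 0.05. Correlations were tested over all 362880 pairings of 9 libraries (exact, two-sided), over 10 relations. The limma fit and the correlation test were both tested on simulated data. The 362880 pairings take all libraries as exchangeable, although they differ in sex and animal by prefix. Only the centred alternative permuted within prefixes B and C. Other steps used scipy 1.17.1, pandas 2.3.3, numpy 2.4.6 and matplotlib 3.10.9 in Python 3.11.15. Counting intervals are exact Poisson intervals at 95% and, like the floor of 3 reads, cover counting error only. The most alike libraries, B1 and B4, differed beyond sampling noise (chi-square per degree of freedom 22.6 over 15353 genes), so all 9 libraries were kept as separate.

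Genes named are the 7 members, Plk1, Mettl3, the genes of the lists given as examples and the 3 genes nearest to each member by r. Several list examples, beyond the highest and lowest mean of each list, were chosen after their values were seen. The members and lists were chosen with earlier results of these data known. Coordinates are those of RefSeq on GRCm38.p6. The values of 1 gene are not reported here.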

Additional observations from a re-analysis of the deposited data

Results flagged for a closer look

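For each of 76 genes (members, lists and Plk1), the gap between the most extreme library and its nearest neighbor was divided by the range of the 9 libraries. The share exceeded Dixon's 95% critical value for 9 values in 11 genes, where about 3.8 would pass by chance if values were normally distributed. The gaps were taken on normalized counts without a log2, and the share of all genes that would pass was not worked out. The 11 is therefore not read as an excess.

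Among the members and their client, Hmga2 was high in C1 (4041 normalized counts, next 2140, gap share 0.5645), and Plk1 was high in C2 (1228, next 705, 0.5632). A1 was extreme for 5 of these genes. It was high for Fmr1, an RNA-binding partner in IGF2BP granules (3092, next 1606, 0.7785), Hmgn5 (543, next 365, 0.6506) and Hmgb1 (6392, next 4968, 0.6412). It was low for Khsrp, a let-7 processing factor (1897, next 2582, 0.7289), and Smarcd1 (468, next 572, 0.5703). C2 was also high for Gli1 (18.7, next 7.64, 0.5924), for Ccna2, the cyclin of S and G2 phases (2107, next 1257, 0.5365), and for Nr6a1 (264, next 188, 0.5100). C3 was high for H19 (25.2, next 11.4, 0.6191).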

How the results depend on the processing

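The mean levels of the 6 members moved by less than their SD under scaling to each library's total, upper-quartile rescaling and without A1. That SD is the wide spread between clones, which such changes could hardly exceed, so this shows little. The mean of Igf2bp2, for example, was 805 with A1 and 690 without it. The count of genes called between prefixes, 26, was 27 with a pseudocount of 0.1, 39 on the deposited log2 values, 19 without a filter, 27 after upper-quartile rescaling, 22 with voom on recovered reads and 29 with prefixes B and C only, and 10 to 259 when a library was left out, so that count depends on single libraries. With a library left out, the log2 difference was 1.52 to 2.77 for Igf2bp1, -0.19 to 0.10 for Hmga1, -0.48 to 0.38 for Hmga2 and -0.10 to 0.87 for Igf2bp3, with the sign turned in at least 1 fit for each of these last 3. The cause was not tested.

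Leaving out each library in turn from the relations was chosen after seeing the data. The r of Hmga1 with Hmga2 was then 0.79 to 0.90 and called in 8 of 9, and without the 2 libraries farthest from the median it was 0.89 and not called. The r was -0.11 to 0.66 for Igf2bp2 with Igf2bp3, -0.028 to 0.23 for Igf2bp3 with Plk1 and 0.67 to 0.95 for Igf2bp3 with Hmga1. Centring within prefixes, which also leaves out A1, gave 0.97 for Igf2bp2 with Hmga1 and 0.83 for Igf2bp2 with Hmga2, both called. The other 128 alternative values of r kept their direction and their side of the threshold. The call by rho of Igf2bp3 with Hmga1 held in 2 of 9 sets with a library left out and that of Igf2bp2 with Plk1 in 1 of 9, that of Hmga1 with Hmga2 held in all 9, and Igf2bp3 with Hmga2 was called by rho without C4. Depth limits Igf2bp1 and Lin28b most. No paired analysis was possible because the labels give only 1 condition.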
